A study of Mus musculus with 24 samples.

Results

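The 9 genes described here were listed as targets of the transcription factor p53 in DNA repair and damage signalling: Ddb2, Xpc, Polk, Polh, Rrm2b, Gadd45a, Gadd45b, Gadd45g and Btg2. Whether p53 acts on each of them directly in these cells was not tested. They were taken by symbol from the TPM table of all samples, which lists 25239 genes. All 9 had a row in it and all 9 passed the filter on low values that left 14104 genes for testing. TPM is scaled to transcript length and sums to 1000000 in each library, so it can be compared between genes but keeps no record of depth.

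RNA was measured in 6 cell lines, each grown from an individual small cell lung tumour of mice carrying Rb1 fl/fl, Trp53 XTR/XTR, Rbl2 fl/fl and Rosa26 FlpO-ER alleles. Tumours had been started with an adenovirus that expresses Cre from the CMV promoter, which acts on the floxed Rb1 and Rbl2 alleles and traps Trp53 in every group, controls included. FlpO activated by 4-hydroxytamoxifen (4-OHT) removes the trap and restores p53. The 3 Type D lines (4711-1, 4711-18 and 4716-11, here lines D1, D2 and D3) lose viability by necrosis after restoration, and the 3 Type V lines (4711-11, 4716-10 and 4716-14, here V1, V2 and V3) stay viable and arrest. Each line gave 4 libraries at 72 h. They are Control (vehicle), Control + CsA (cyclosporin A, an inhibitor of cyclophilins), Restored (4-OHT) and Restored + CsA, which makes 24 libraries in 8 groups of 3. The types were named by the study from the fate of these lines, so type and line cannot be told apart beyond 3 lines against 3.

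Nucleotide excision repair removes bulky lesions such as those made by ultraviolet light. Ddb2 and Xpc recognise the damaged site ahead of the factors that open and cut the strand. Polk and Polh encode DNA polymerases kappa and eta, which copy past damaged bases in translesion synthesis. Rrm2b encodes the p53-inducible small subunit of ribonucleotide reductase, which makes deoxynucleotides. The Gadd45 proteins are small stress sensors that bind PCNA, the Cdk1 and cyclin B1 kinase and the MAP kinase kinase kinase Map3k4. Btg2 is an antiproliferative protein that binds the Ccr4-Not deadenylase.

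As a check on the labels, Trp53 lay between 10.5 and 15.3 TPM in the libraries without restoration and between 181 and 253 TPM in those with it. RNA of the floxed genes was measured in every library, at 7.36 to 17.3 TPM without and 21.1 to 68.8 TPM with restoration for Rb1 and at 4.49 to 20.6 TPM overall for Rbl2. Rb1 was called higher on restoration, by 1.60 ± 0.297 on the log2 scale in Type D (adjusted p = 0.00113) and 1.97 ± 0.297 in Type V (adjusted p = 0.000204, limma), and Rbl2 was not called. A TPM per gene does not show whether the floxed exons are missing, so these levels do not check the deletion. The small cell markers Neurod1, Chga and Calca were at or near 0 in all libraries, none above 0.105 TPM. Other neuroendocrine markers were present, so these low levels do not speak for the whole marker list. Ncam1 lay between 4.46 and 27.3 TPM over all libraries. Insm1 was at most 3.39 TPM in Type D and 1.13 to 49.6 TPM in Type V. Yap1, a marker of non-neuroendocrine small cell lines, was at 93.5 TPM or more in every library, and Uchl1 was at most 2.66 TPM in Type D and 3.12 to 40.9 TPM in Type V. The summed level of the 5 fibroblast markers was at most 1.93 TPM in Type D, with Lum at 0 in each Type D library. The Type V sum was 177 to 521 TPM without restoration and 17.9 to 184 TPM with it. In Type V, too, Lum was low, at most 0.844 TPM, and Pdgfra was at most 3.37 TPM. The Type V sum thus came mainly from Col1a1, Col1a2 and Dcn. Leukocyte and endothelial lists summed to at most 2.77 TPM in any library.

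Promoters are shown for Polk and Btg2, the 2 genes called higher on restoration, and for Gadd45a, whose lines disagreed in direction. Lines also disagreed for Gadd45b, whose promoter is not shown. The sequences are the 250 bases before the annotated start, written 5′ to 3′ on the gene's strand, from RefSeq on GRCm38.p6. Polk (its upstream start) is at chr13:96542580-96542829, Btg2 at chr1:134079156-134079405 and Gadd45a at chr6:67037408-67037657, all on the minus strand. Capitals mark the stretch closest to the p53 consensus element, which is a pair of 10-base half-sites up to 13 bases apart. Both strands are covered by the search because the consensus is its own reverse complement.
Polk: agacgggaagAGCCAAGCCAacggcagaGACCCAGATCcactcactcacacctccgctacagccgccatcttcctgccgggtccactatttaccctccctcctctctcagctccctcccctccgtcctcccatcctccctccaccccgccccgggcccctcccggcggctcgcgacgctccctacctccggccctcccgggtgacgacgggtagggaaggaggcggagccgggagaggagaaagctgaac
Btg2: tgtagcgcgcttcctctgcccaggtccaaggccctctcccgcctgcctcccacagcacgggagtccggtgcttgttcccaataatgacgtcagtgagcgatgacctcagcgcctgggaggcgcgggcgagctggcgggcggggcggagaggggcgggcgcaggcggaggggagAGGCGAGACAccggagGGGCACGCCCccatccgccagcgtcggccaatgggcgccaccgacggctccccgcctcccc
Gadd45a: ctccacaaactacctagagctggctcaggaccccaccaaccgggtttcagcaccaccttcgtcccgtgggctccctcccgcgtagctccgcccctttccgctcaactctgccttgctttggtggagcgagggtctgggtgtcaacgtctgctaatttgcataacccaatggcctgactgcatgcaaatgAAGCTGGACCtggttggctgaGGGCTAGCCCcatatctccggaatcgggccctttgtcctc
The closest stretch had 5 mismatches in Polk, 4 in Btg2 and 2 in Gadd45a. Of all 32851 promoter windows of 300 bases, 68.7% hold a stretch with at most 5 mismatches, 40.4% one with at most 4 and 4.09% one with at most 2. The stretch in Gadd45a starts 61 bases before the start and has a spacer of 11 bases. The windows of Gadd45b and Gadd45g held at best 3 and 5 mismatches, and that of Polh 4. A second Polk start, inside the gene, had 4. A match of letters is a description of the window and shows no binding.

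Levels of the genes in single libraries ran from 4.54 TPM for Btg2 to 299.8 TPM for Gadd45g. In Control, Gadd45g had the highest group mean in both types, 103 ± 54.6 TPM in Type D and 119.5 ± 5.99 TPM in Type V (SD, n = 3), and Ddb2 the lowest, at 8.48 ± 4.04 and 7.30 ± 0.534 TPM. Only Polk and Btg2 separated the 12 libraries without restoration from the 12 with it. That is 2 of 9, where 4.38% of all genes tested separated them in either direction. The other 7 overlapped over both types.

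**Figure D1:**
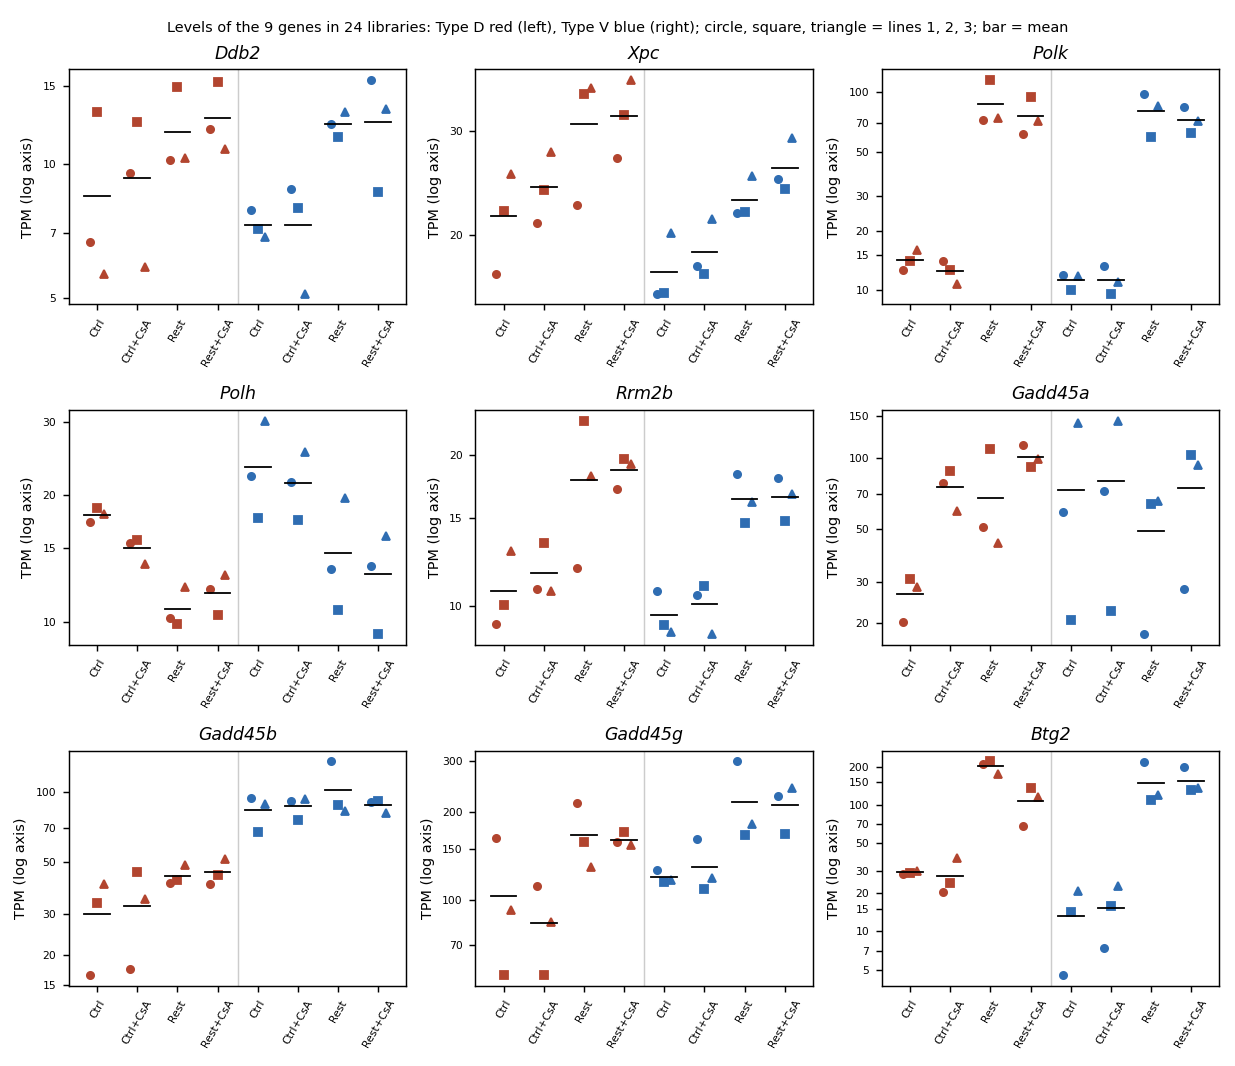
Level of each gene in every library as TPM on a log axis, with the 4 Type D groups in red on the left and the 4 Type V groups in blue on the right of each panel (Ctrl, Control; Rest, Restored). Circles, squares and triangles are lines 1, 2 and 3 of a type and bars are group means; Polk stays at or below 15.96 TPM without restoration and at or above 59.6 TPM with it, while Gadd45a is scattered within groups.

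Restoration was compared first, in each type and with or without CsA. These are bulk RNA levels, in which fewer cells of a kind and less RNA per cell cannot be told apart. Polk and Btg2 rose in all 4 comparisons, and were called, that is, limma gave an adjusted p below 0.05 with a log2 difference of 1 or more in size. That is 2 of the 9 genes in each, where 4.49% of all genes tested were called higher in Type D, 3.39% in Type V, 3.53% in Type D under CsA and 2.84% in Type V under CsA. None of the 9 was called lower, where 2.44%, 1.9%, 1.88% and 1.77% of all genes were. Quantile normalisation moved this balance over all genes, from 633 higher and 344 lower to 499 and 421 in Type D, and from 498 and 265 to 373 and 324 in Type D under CsA. The median change over the 9 genes was 0.65 on the log2 scale in Type D and 0.68 in Type V, against 0.07 and 0.05 over all genes tested. By the adjusted p alone, 4 of the 9 passed in Type D, 3 in Type V and 2 in each type under CsA, where 12.9%, 9.95%, 8.89% and 7.71% of all genes passed. With the cell line as a block in the fit, 8, 7, 7 and 7 of the 9 passed by the adjusted p alone, where the share over all genes was 45.3%, 40.6%, 41.1% and 37.1%. With the block Polk and Btg2 were again the 2 genes called in each comparison, where 11.2%, 8.66%, 9.69% and 7.97% of all genes were called.

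**Figure D2:**
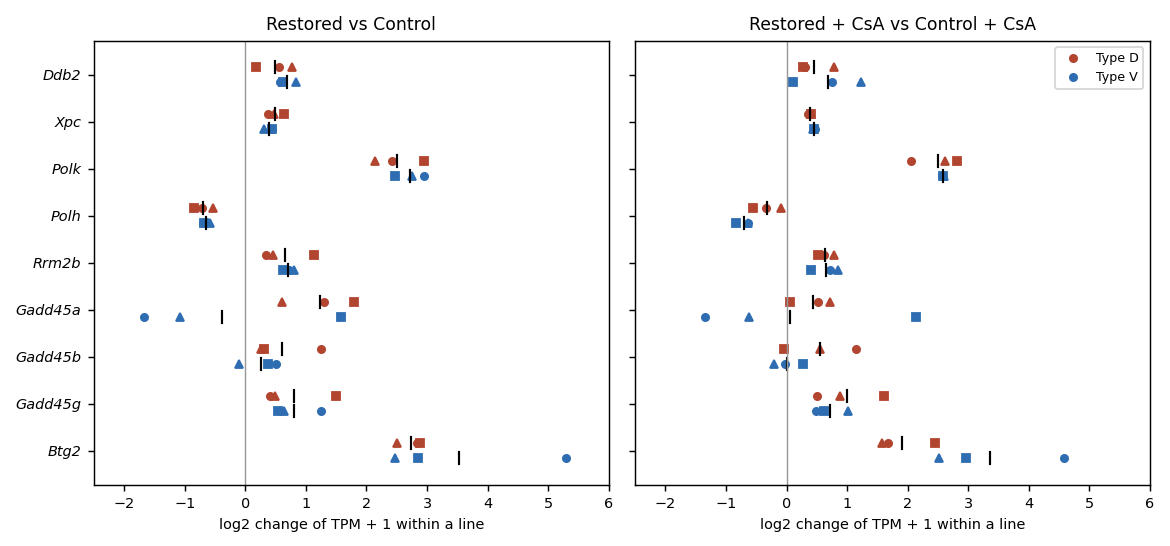
Change of each gene within a line on the log2(TPM + 1) scale, Restored against Control on the left and Restored + CsA against Control + CsA on the right. Symbols are lines 1, 2 and 3 of Type D (red) and Type V (blue) and short bars are means; Polk and Btg2 lie above 1.5 in every line, Polh lies below 0 in every line, and Gadd45a lies on both sides of 0 in Type V.

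Of the damage recognition genes, Ddb2 was higher with restoration in all 12 pairs of libraries from one line, by 0.11 to 1.22 on the log2 scale, without passing the test in any comparison. Each of the 6 lines gives a pair with CsA and a pair without, so the 12 pairs are not independent. How many of all genes moved the same way in all 12 pairs was not counted. In Type D the TPM of Ddb2 was 6.67, 13.1 and 5.65 in Control and 10.2, 14.9 and 10.3 in Restored (lines D1, D2 and D3). The Type V lines had 7.89, 7.14 and 6.86 in Control and 12.3, 11.5 and 13.1 in Restored. The Type V groups did not overlap, and the Control level of line D2 lay above the Restored levels of the other Type D lines. Its log2 difference was 0.49 ± 0.294 (SE, adjusted p = 0.324, limma) in Type D and 0.68 ± 0.294 (adjusted p = 0.173) in Type V. With the line as a block the adjusted p was 0.0391 and 0.00802. Under CsA, Type D gave 0.45 ± 0.294 (adjusted p = 0.414) and Type V 0.69 ± 0.294 (adjusted p = 0.186). The block gave 0.0608 in Type D, which did not pass, and 0.00797 in Type V. Ddb2 (chr2:91211572-91236982, GRCm38) overlaps the 3′ part of Acp2 on the opposite strand, which lay between 15.6 and 36.4 TPM. Libraries were stranded, but whether strand was used in quantification is not given in the sources used here, so reads of overlapping genes may not have been separated.

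Xpc was higher in all 12 pairs as well, within a narrow span of 0.31 to 0.64 on the log2 scale. In Type D it was 17.1, 22.0 and 25.4 TPM in Control and 22.5, 34.7 and 35.6 TPM in Restored. The Type V values were 15.9, 15.9 and 20.1 TPM in Control and 21.8, 21.8 and 25.2 TPM in Restored. The order of the lines was the same before and after restoration in Type D, so that D1 in Restored stayed below D3 in Control. The fitted log2 difference came to 0.49 ± 0.19 in Type D (adjusted p = 0.103) and 0.39 ± 0.19 in Type V (adjusted p = 0.235, limma), with an adjusted p of 0.000131 and 0.001 when the line was a block. Under CsA it was 0.39 and 0.46 (adjusted p = 0.248 and 0.176), with 0.00119 and 0.000358 with the block. Xpc is at chr6:91489305-91515888.

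Of 34 other genes of nucleotide excision repair, all of which were tested, 1 was called higher in each type and none lower. It was Ercc5 (XPG), the endonuclease that cuts 3′ of the lesion, with a log2 difference of 2.72 ± 0.313 in Type D (adjusted p = 7.59e-06) and 2.33 ± 0.313 in Type V (adjusted p = 6.22e-05, limma). By the adjusted p alone 1 was higher and 3 lower in Type D, and 1 higher and 5 lower in Type V. Over all genes tested, 4.49% in Type D and 3.39% in Type V were called higher, and 2.44% and 1.9% lower. By the adjusted p alone 12.9% and 9.95% of all genes passed in either direction. The same shares stand beside the counts of the other gene lists below. The median over the list was -0.08 and -0.20 on the log2 scale.

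Polk, at chr13:96480690-96542579, rose in every line. In Type D it was 12.7, 14.1 and 15.96 TPM in Control and 72.6, 115 and 73.9 TPM in Restored. Among Type V lines the level was 11.9, 9.97 and 11.7 TPM in Control and 98.0, 59.6 and 84.7 TPM in Restored. All 12 pairs rose by 2.06 to 2.94 on the log2 scale. On the log2 scale the difference was 2.50 ± 0.213 in Type D (adjusted p = 2.48e-07) and 2.72 ± 0.213 in Type V (adjusted p = 9.1e-08, limma). Under CsA it was 2.50 in Type D and 2.58 in Type V, and the 3 Type V lines then differed with an SD of 0.00956 on the log2 scale. In the order of group means all 4 groups without restoration came first and all 4 with it last, with no overlap between the 2 sets, and neighbours within each set overlapped. The gene Gm17622 lies over part of Polk on the opposite strand.

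Polh went the other way. It was lower with restoration in all 12 pairs, by 0.09 to 0.86 log2 in size, and is the only one of the 9 that was lower in each pair. In Type D it was 17.3, 18.7 and 18.0 TPM in Control and 10.2, 9.88 and 12.1 TPM in Restored, and the groups did not overlap. For V1, V2 and V3 it stood at 22.3, 17.7 and 30.2 TPM in Control and 13.4, 10.6 and 19.7 TPM in Restored, where line V3 after restoration stayed above V2 before it. The difference on the log2 scale was -0.70 ± 0.229 in Type D (adjusted p = 0.0498) and -0.66 ± 0.229 in Type V (adjusted p = 0.0787, limma). With the line as a block the adjusted p was 5.92e-05 and 0.000131. Under CsA the difference was -0.33 ± 0.229 in Type D and -0.70 ± 0.229 in Type V, and the difference between the types, 0.37 ± 0.323, did not pass (adjusted p = 1). The adjusted p values under CsA were 0.456 and 0.0698, and with the block 0.019 and 8.8e-05. In Type D Polh no longer passed without D1, D2, D3 or V1, without the filter on low values (adjusted p = 0.0639) or on only the groups compared (adjusted p = 0.0508). In Type V it passed after quantile normalisation (adjusted p = 0.0229) and median-ratio scaling (adjusted p = 0.0435), and also under CsA (0.0251 and 0.0358). Polh is at chr17:46171355-46202645.

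Of 16 other genes of translesion synthesis, 1 was called higher and 1 lower in each type. Rev1, the deoxycytidyl transferase that also serves as a scaffold for the other polymerases, rose by 1.42 ± 0.40 in Type D (adjusted p = 0.0232) and 1.53 ± 0.40 in Type V (adjusted p = 0.0181, limma) on the log2 scale. Polq, the polymerase of microhomology-mediated end joining, had log2 differences of -1.55 ± 0.306 and -1.45 ± 0.306 (adjusted p = 0.0019 and 0.00404). Over the list the median was 0.01 and -0.09. The longest run of bases shared by the transcripts of Polk and Polh was 11, against reads of 75 bases.

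Rrm2b rose by the adjusted p alone and stayed under 1 on the log2 scale. In Type D it was 9.22, 10.1 and 12.9 TPM in Control and 11.9, 23.4 and 18.1 TPM in Restored, so the groups overlapped through line D1. Type V levels were 10.7, 9.17 and 8.88 TPM in Control and 18.3, 14.6 and 16.1 TPM in Restored, without overlap. Restoration gave a log2 difference of 0.65 ± 0.20 in Type D (adjusted p = 0.0387) and 0.71 ± 0.20 in Type V (adjusted p = 0.0272, limma). Under CsA it was 0.64 (adjusted p = 0.0521) and 0.66 (adjusted p = 0.051), with 0.00234 and 0.00226 with the line as a block. Without CsA, Rrm2b no longer passed in Type D when D2, D3, V1 or V3 was left out, nor in Type V when D3, V1, V2 or V3 was. On only the groups compared the adjusted p was 0.225 and 0.18, and after quantile normalisation it was 0.0613 in Type D. Under CsA Rrm2b passed at a minimum of 5 TPM (adjusted p = 0.0424 in Type D and 0.041 in Type V), and in Type V also with a pseudocount of 0.1 (0.0492), after median-ratio scaling (0.0222) and without D1 (0.0352) or D2 (0.0395). The gene is at chr15:37923952-37961318, where Gm49085 lies on the opposite strand over its first exon region. Its paralogue Rrm2 shares at most 26 bases in a row with it.

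Among 16 other genes of deoxynucleotide supply, 1 was called lower in Type D and none higher. It was Tk1, the S-phase thymidine kinase (-1.15 ± 0.194 log2, adjusted p = 0.000432, limma). By the adjusted p alone 1 was higher and 6 lower in Type D, and 1 higher and 5 lower in Type V. The list median was -0.51 and -0.32 on the log2 scale, while Rrm2b was above 0 in each line.

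The 3 Gadd45 genes showed different patterns over the lines. Gadd45a (chr6:67035096-67037457) was 20.2, 30.9 and 28.5 TPM in Control and 51.1, 109 and 43.7 TPM in Restored in Type D, so that all 3 lines were higher and the groups did not overlap. The Type V lines were at 59.3, 20.7 and 140.3 TPM in Control and 18.0, 63.8 and 65.8 TPM in Restored. Line V2 was higher by 1.58 on the log2 scale, whereas V1 and V3 were lower, with changes of -1.67 and -1.08. The same split of lines was seen under CsA, with 2.13 in V2, -1.35 in V1 and -0.62 in V3. The change in log2 units was 1.23 ± 0.679 in Type D (adjusted p = 0.282) and -0.39 ± 0.679 in Type V (adjusted p = 0.838, limma). Under CsA it was 0.43 ± 0.679 in Type D (adjusted p = 0.813) and 0.06 ± 0.679 in Type V (adjusted p = 0.992). The difference between the types, 1.62 ± 0.96 with a 95% interval from -0.40 to 3.63, did not pass (adjusted p = 1). E230016M11Rik, a transcript on the opposite strand over Gadd45a, lay between 0.406 and 4.31 TPM.

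Gadd45b (chr10:80930073-80932204, plus strand) was 16.5, 33.5 and 40.1 TPM in Control and 40.7, 41.8 and 48.4 TPM in Restored in Type D. The 3 lines, which were spread in Control, thus lay close together after restoration, and line D1 gave the largest change, 1.25 on the log2 scale. Type V had 94.1, 67.4 and 88.6 TPM in Control and 135, 87.8 and 82.5 TPM in Restored, where the change in V3 was -0.10 on the log2 scale. Restoration gave a log2 difference of 0.61 ± 0.30 (adjusted p = 0.216) in Type D and 0.26 ± 0.30 (adjusted p = 0.71, limma) in Type V. With the line as a block the adjusted p was 0.0278 in Type D and 0.342 in Type V. Under CsA the log2 difference was 0.55 ± 0.30 in Type D (adjusted p = 0.303) and 0.02 ± 0.30 in Type V (adjusted p = 0.994, limma). The block then gave 0.0471 and 0.965. Changes under CsA were 1.16, -0.05 and 0.55 on the log2 scale in D1, D2 and D3. In V1, V2 and V3 they were -0.02, 0.27 and -0.20.

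Gadd45g (chr13:51846678-51848468, plus strand), the most abundant of the 3, was 163, 55.1 and 92.3 TPM in Control and 216, 158 and 129 TPM in Restored in Type D. The Type V lines stood at 126, 115 and 117 TPM in Control and 299.8, 166 and 183 TPM in Restored. It was higher in all 12 pairs, by 0.40 to 1.62 on the log2 scale, and the Type V groups did not overlap. Its log2 difference was 0.80 ± 0.32 in both types (adjusted p = 0.119 and 0.131, limma), and with the line as a block the adjusted p was 0.00965 and 0.0105. Under CsA the log2 difference was 1.00 ± 0.32 in Type D (adjusted p = 0.0592) and 0.71 ± 0.32 in Type V (adjusted p = 0.22), with 0.00249 and 0.0228 with the block. Within lines, after each line's mean was removed, the Pearson r over the 24 libraries was 0.37 between Gadd45a and Gadd45b, 0.08 between Gadd45a and Gadd45g and 0.42 between Gadd45b and Gadd45g. These correlations are descriptions, since the libraries share lines and treatments. The transcripts of the 3 genes share at most 13 to 17 bases in a row.

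Of 16 genes whose products bind Gadd45 proteins or act with them, 14 were tested, and 1 was called higher and 2 lower in each type. Cdkn1a, the p21 inhibitor of cyclin-dependent kinases, rose by 4.17 ± 0.304 in Type D (adjusted p = 3.46e-08) and 4.80 ± 0.304 in Type V (adjusted p = 4.9e-09, limma) on the log2 scale. Ccnb1 (cyclin B1) had log2 differences of -3.48 ± 0.309 and -2.12 ± 0.309 (adjusted p = 3.69e-07 and 0.000145). Cdk1, its kinase partner, had -2.30 ± 0.273 and -1.54 ± 0.273 (adjusted p = 9.76e-06 and 0.000944). The list median was -0.04 and 0.01.

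Btg2 (chr1:134075170-134079120) rose in every line. In Type D it was 28.6, 29.0 and 29.98 TPM in Control and 209, 221 and 175 TPM in Restored. Its Type V levels were 4.54, 14.3 and 21.0 TPM in Control and 217, 109 and 120.4 TPM in Restored. The Control levels of Type D thus had an SD of 0.697 TPM. Line V1 started lowest and reached the highest Type V level, a change of 5.30 on the log2 scale against 2.85 and 2.47 in V2 and V3. The fitted log2 difference came to 2.74 ± 0.433 in Type D (adjusted p = 0.000224) and 3.54 ± 0.433 in Type V (adjusted p = 2.27e-05, limma). The difference between the types, -0.80 ± 0.612 with a 95% interval from -2.08 to 0.49, did not pass (adjusted p = 1). Under CsA the log2 difference was 1.90 ± 0.433 in Type D (adjusted p = 0.00743) and 3.36 ± 0.433 in Type V (adjusted p = 4.09e-05). The Type D value under CsA lost its call when any 1 of the 3 Type D lines was left out, with 2.01 (adjusted p = 0.0548) without D1, 1.62 (0.159) without D2 and 2.07 (0.0658) without D3.

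Of 16 other genes of the Btg and Tob family and the Ccr4-Not complex, 14 were tested and 1 was called higher in each type, none lower. Btg1, the nearest relative of Btg2, rose by 1.28 ± 0.208 on the log2 scale in Type D (adjusted p = 0.000292) and by 0.72 ± 0.208 in Type V (adjusted p = 0.0324, limma), where it was under the limit of 1. Tob1, another antiproliferative member, rose by 1.21 ± 0.247 in Type V (adjusted p = 0.00322), and its difference in Type D was 0.42 ± 0.247 (adjusted p = 0.322). The difference between the types was 0.57 ± 0.294 for Btg1 and -0.79 ± 0.35 for Tob1 (adjusted p = 1 for both). The list median was -0.16 in Type D and -0.23 in Type V. Btg1 and Btg2 transcripts share at most 20 bases in a row.

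CsA was then compared with vehicle. Of the 9 genes 0 were called under CsA alone in Type D or Type V, where 0% of the 14104 genes tested were called (an unadjusted p under 0.05 was seen for 114 genes in the former type and 54 in the latter, and with the line as a block 0.0142% and 0% were called, none of the 9 among them). The largest difference among the 9 was that of Gadd45a in Type D. Its TPM of 20.2, 30.9 and 28.5 in Control stood against 78.5, 87.9 and 59.5 in Control + CsA, so the groups did not overlap and each line was higher, by 1.91, 1.48 and 1.04 on the log2 scale. The log2 difference of 1.47 ± 0.679 had an unadjusted p of 0.0431 and an adjusted p of 1 (limma; 0.617 with the line as a block). In Type V the same comparison gave 59.3, 20.7 and 140.3 TPM against 72.4, 22.6 and 144 TPM, a difference of 0.15 ± 0.679. The difference between types, 1.33 ± 0.96, did not pass (adjusted p = 1). The spread of Gadd45a among Type V lines enters these standard errors, since all groups share 1 estimate. The Restored and the Control + CsA groups of Type D are both set against the same Control libraries.

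With p53 restored, CsA again called 0 of the 9 genes, where 0.0142% of all genes were called in Type D and 0% in Type V (229 and 100 genes had an unadjusted p under 0.05, and with the line as a block 0.128% and 0% were called, again none of the 9). In Type D, Btg2 was 209, 221 and 175 TPM in Restored and 68.1, 137 and 115 TPM in Restored + CsA. Each line was lower and the groups did not overlap, with changes of -1.61, -0.69 and -0.61 on the log2 scale. On the log2 scale the difference was -0.97 ± 0.433 (unadjusted p = 0.038, adjusted p = 1, limma; 0.363 with the line as a block). Type V lines gave 217, 109 and 120.4 TPM against 199, 131 and 136 TPM, a difference of 0.10 ± 0.433. The difference between types, -1.07 ± 0.612 with a 95% interval from -2.35 to 0.21, did not pass (adjusted p = 1). Gadd45a was higher in 2 of 3 Type D lines and in 3 of 3 Type V lines, with log2 differences of 0.68 ± 0.679 and 0.59 ± 0.679 (adjusted p = 1 for both). Over both settings Gadd45a and Xpc were each higher with CsA in 11 of 12 pairs, Xpc by at most 0.28 on the log2 scale. Each line gives a pair in both settings, so these pairs are not independent, and the share over all genes was not counted. The test of whether CsA altered the change on restoration called 0 of the 9 genes in either type, where 0% of all genes were called (56 and 23 genes had an unadjusted p under 0.05, limma). The main fit did not pair libraries by line, so the spread between lines enters its error. With the line as a block the count over all genes was again 0 in both types. A count of 0 in either fit does not show that CsA left the change on restoration unaltered.

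**Figure D3:**
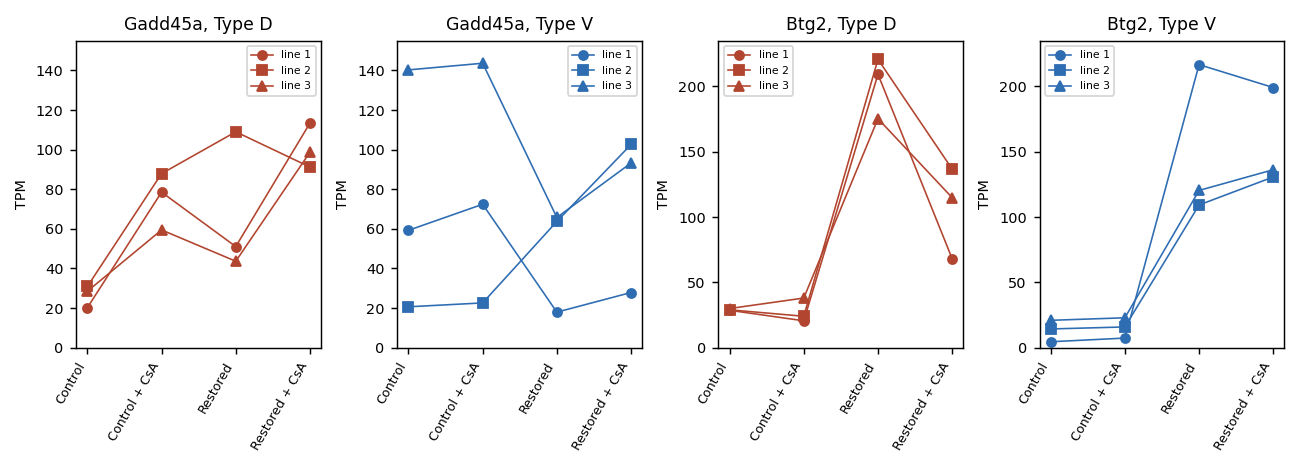
TPM of Gadd45a (left pair) and Btg2 (right pair) in the 4 groups, with each line of Type D (red) and Type V (blue) joined across its 4 libraries. Gadd45a in Type D runs from 20.2 to 30.9 TPM in Control and from 59.5 to 87.9 TPM in Control + CsA, and Btg2 in Type D is lower in Restored + CsA than in Restored in each line.

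The types were compared within each treatment. Gadd45b was the only one of the 9 genes that was called, lower in Type D in Control, Control + CsA and Restored. The share of all genes called lower in Type D was 4.41%, 5.07% and 4.99%, so 1 called gene of 9 is no result about the 9 as a group. In Control its TPM was 16.5, 33.5 and 40.1 in Type D and 94.1, 67.4 and 88.6 in Type V. No Type D library reached the lowest Type V library in any treatment, with 51.5 TPM as the highest of the 12 Type D libraries and 67.4 TPM as the lowest of the 12 of Type V. The difference on the log2 scale was -1.52 ± 0.30 in Control (adjusted p = 0.00205), -1.48 ± 0.30 in Control + CsA (adjusted p = 0.00241), -1.17 ± 0.30 in Restored (adjusted p = 0.013) and -0.94 ± 0.30 in Restored + CsA (adjusted p = 0.0476, limma). The last is under 1 on the log2 scale and was not called, where 4.06% of all genes were called lower. These p-values come from the fit of all libraries, which does not allow for the likeness of libraries from the same line. A fit of only the 2 groups compared holds 1 library per line. There the adjusted p was 0.0679 in Control and 0.0695 in Control + CsA (limma). Without line V1 the Restored value was -0.95 (adjusted p = 0.09). The summed fibroblast markers differed between the types in the same libraries, at most 1.93 TPM in Type D and 17.9 to 521 TPM in Type V, and their part in the difference of Gadd45b was not tested.

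Btg2 was higher in Type D in Control, with 28.6 to 29.98 TPM against 4.54 to 21.0 TPM and no overlap. The log2 difference of 1.29 ± 0.433 had an adjusted p of 0.0548 (limma). It passed after quantile normalisation (1.36, adjusted p = 0.0411), after median-ratio scaling (1.40, adjusted p = 0.0436) and without line V3 (1.71, adjusted p = 0.0257). In Restored + CsA the difference was -0.57 ± 0.433 (adjusted p = 0.425). Gadd45a in Control, at -1.07 ± 0.679, passed when line V2 was left out (-1.77, adjusted p = 0.0454). The other 6 genes differed between types by at most 0.67 log2 in size in any treatment, and none of them passed.

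**Figure D4:**
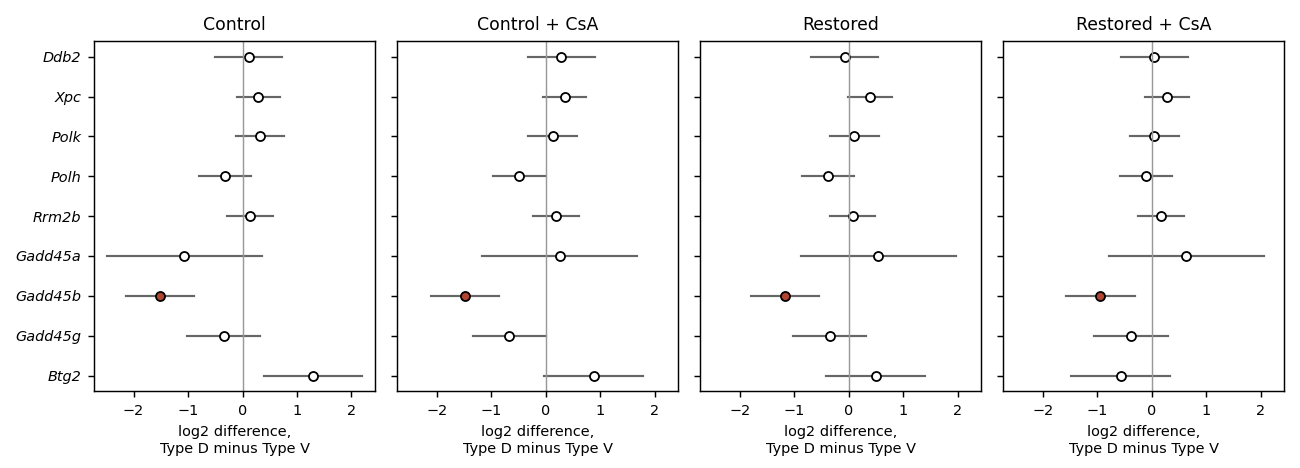
Log2 difference of each gene between the types, Type D minus Type V, in each of the 4 treatments, with 95% intervals from limma as horizontal lines. Filled points have an adjusted p under 0.05; only Gadd45b is filled, at -1.52, -1.48, -1.17 and -0.94.

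The difference of the restoration response between the types was tested for all 9 genes, and 0 were called, where 0.0284% of all genes were (540 genes had an unadjusted p under 0.05, none of the 9 among them). With the line as a block 2.44% of all genes were called and again 0 of the 9. For Polk the difference was -0.22 ± 0.302, with a 95% interval from -0.85 to 0.42 on the log2 scale. For Xpc it was 0.10, with an interval from -0.46 to 0.66, and for Rrm2b -0.07, from -0.66 to 0.53. Under CsA 0 of the 9 were called as well, where 0.0142% of all genes were (2.32% and again 0 of the 9 with the block), and Btg2 had the difference of greatest size among them, -1.45 ± 0.612 (unadjusted p under 0.05, adjusted p = 1, limma).

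Finally, the genes whose levels over the 24 libraries were most like each of the 9 were listed, with Pearson's r of log2(TPM + 1). All libraries come from 6 lines under the same treatments, so these values describe the table and carry no test. Polk was most like Trim11 and 1700007K13Rik, at 0.986 with both. Those 2 genes rose on restoration by 2.34 and 5.81 on the log2 scale in Type D and by 2.46 and 6.08 in Type V. Btg2 was most like Ptk2b and Cdkn1a, at 0.947 with both, and Ptk2b rose by 1.55 and 2.47. Polh was most like Siah1b (0.957) and Snrnp25 (0.94), and Siah1b had log2 differences of -1.32 and -1.03. Rrm2b was most like Serinc1 (0.927) and Pigf (0.925), and Gadd45g most like Cpeb2 (0.906) and Acvr1 (0.899). Ddb2 was most like Klhdc8b (0.916) and Sec16a (0.898), and Xpc most like Arap1 (0.915) and Zfp865 (0.904). Gadd45b was most like Sccpdh (0.94) and Nrg1 (0.939), but with each line's mean removed its r was 0.733 and 0.581. Over the 24 libraries without that step, the nearest genes to Gadd45a, Mospd1 (0.753) and Mrrf (0.743), were the least alike of these pairs. Within lines, with each line's mean removed, r with Polk was 0.94 for Btg2, 0.94 for Rrm2b, 0.92 for Xpc, 0.90 for Gadd45g, 0.84 for Ddb2, 0.56 for Gadd45b, 0.17 for Gadd45a and -0.92 for Polh.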

How the data were processed

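Poly(A) RNA from 24 libraries had been sequenced by the study as stranded, single-end reads of 75 bases. The authors deposited 1 table of TPM. Their methods name kallisto or HISAT2, the labels HISAT2, and both give mm10 and GRCm39, so the aligner and build behind the table are uncertain. Depth is unknown. The 9 genes, the gene lists and the tests were chosen with earlier results of these data known.

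Values were analysed as log2(TPM + 1), a scale that understates fold changes of low genes. The 14104 of 25239 genes with at least 1 TPM in at least 3 samples were tested with limma 3.58.1 (R 4.3.3, eBayes, trend set), giving each of the 8 groups its own coefficient. In each of 18 comparisons (3 added after seeing the data: the differences between types in restoration under CsA, in CsA alone and in CsA added to restored p53) p-values were adjusted over all genes tested, two-sided. A gene was called at an adjusted p below 0.05 with a log2 difference of 1 or more in size. Scripts were tested on simulated data.

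Libraries are paired through the cell line that the labels give. After group means were removed, libraries of one line correlated at 0.599 to 0.929 (36 pairs), those of different lines of a type at -0.675 to 0.0438 (72 pairs). The block was an alternative, which the comparisons of types could not take, since a line belongs to 1 type. Replicates are lines. The main fit treated all libraries as independent, although those of the same line were alike. Each line thus entered the shared estimate of spread with several libraries, and p-values between types may be too small. P-values with the block measure the spread left within lines.

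Named genes were the 9, up to 3 called genes per list and type with the greatest change, and the 2 genes most like each member. Some of the genes this rule and the marker lists hold are not reported here. Gene positions are from GENCODE M21 (GRCm38). Promoter windows were matched by symbol for 6 of 9 genes (7 windows; Ddb2, Xpc and Rrm2b not among them), from 250 bases before to 50 after a start. Mismatches to the p53 consensus element were counted with the fixed core bases of both half-sites kept. Plots used matplotlib 3.10.9 and Python 3.11.15.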

Additional observations from a re-analysis of the deposited data

How the results depend on the processing

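Results were recomputed with a pseudocount of 0.1, without the filter, at a minimum of 5 TPM (11785 genes), with quantile normalisation, with median-ratio scaling (factors 0.887 to 1.12), with the cell line as a replicate block, on only the groups compared, and with each line left out. Of 2070 recomputed values of single genes, 0 called values changed sign, 6 lost and 5 gained a call, and 72 of the 2059 that kept their side of the limits changed sign. The number of the 9 genes called on restoration under CsA in Type D, 2 with all lines, was 1 to 2 with a line left out (1 without D2 or D3). For the types in Control, 1 of the 9 was called. It was 2 after quantile normalisation and after median-ratio scaling, 0 on only the groups compared, and 1 to 2 with a line left out. It was also 0 in Control + CsA with only the groups compared. In Restored it was 0 without V1 (0 to 1 over the lines). By the adjusted p alone, restoration passed 4 of 9 in Type D, and the replicate block gave 8, only the groups compared 2 and a line left out 2 to 4. The block gave 7 in Type V and in both types under CsA. Under CsA, a line left out gave 1 to 2 in Type D, and median-ratio scaling gave 4 in Type V. Over all genes, the calls on restoration (977 in Type D, 746 in Type V, 763 and 650 under CsA) were 1582, 1222, 1366 and 1124 with the block and 291 and 276 in Type V on only the groups compared. The calls between types (1246, 1393, 1331 and 1103) were then 631, 649, 490 and 598, and the difference of restoration between types (4, and 2 under CsA) gave 344 and 327 with the block. Without D2 the Type D calls were 604, and without D3 456 under CsA. Without D1 the calls between types were 800 in Control, 766 in Restored and 697 in Restored + CsA (700 in the last without D3). The difference of restoration between types gave 15 without V2 and 8 without D3, and under CsA 1 without D1 or D2, 6 without V1, 12 without V2 and 5 without V3. The median of all genes differed between types in Control by -0.12 log2, and by -0.02 after median-ratio scaling. In Control + CsA it was -0.13 and -0.02. Gadd45g under CsA in Type D was called without D1 (1.25, adjusted p = 0.0305, limma). The causes were not tested. Groups of 3 lines and the unknown depth limit what could be detected.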
